A study of Rattus norvegicus with 96 samples.

Results

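RNA of the central nucleus of the amygdala, taken 1 h after the last drinking episode, was compared between rats that drank ethanol and rats that did not. Arrays were chosen by their titles, which name the region, the hour and the treatment. This gave 17 of the 96 arrays of the series, 11 from ethanol rats and 6 from water rats. All rats were P rats, a line bred to prefer alcohol. Ethanol rats had limited access to ethanol, which the series title calls binge drinking. Water rats were the controls, and their arrays carry the same 1 h label. The labels give no age, sex, dose or intake, and they do not say that each array is a separate animal, so p-values measure the spread between these arrays. The other amygdala arrays came from 6 h (15 arrays) and 24 h (16 arrays), and 17 arrays at 1 h came from the shell of the nucleus accumbens.

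The central nucleus is the main output station of the amygdala. It is built largely of GABA neurons, many of which also make a neuropeptide such as corticotropin-releasing hormone, neurotensin or somatostatin. It is known for its part in fear, in stress and in the urge to drink during withdrawal. Ethanol acts there on GABA release, on glutamate receptors and on peptide signalling.

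Each value is the log2 of a probe set's brightness. A difference of 1 is therefore a doubling, and differences below are ethanol minus water. Each probe set has its own brightness, so levels are not compared between genes, and a brighter probe set of a gene is named only to tell it from the others. The labelled tissue was checked against markers, with the accumbens shell, a striatal region of similar neurons, as the other side. Among the water arrays, corticotropin-releasing hormone (Crh) stood 2.80 higher than in the accumbens shell, the retinoic acid-degrading enzyme Cyp26b1 4.16 higher and the transcription factor Zfhx3 2.16 higher, while the dopamine receptor Drd1 differed by -2.52. The list of central amygdala and striatal-type neurons holds genes of both regions: 5 of its 18 members on the array were higher in the amygdala and 13 lower, among them Ppp1r1b (-2.49), Foxp2 (-2.46) and Penk (-0.73). All 18 passed the filter on low values. Of 12 markers of the neighbouring basolateral amygdala and cortex, 4 passed (Lmo3, Nrgn, Mef2c and Cux2), and the cortical genes Slc17a7, Neurod6 and Tbr1 did not. Nrgn was 1.12 higher than in the accumbens. Slc17a6, a glutamate transporter of medial amygdala, hypothalamus and thalamus neurons, passed and was 2.32 higher. The share of tissue from neighbouring nuclei was not tested. Nor was an offset between the regions from their normalization. Over all marker lists, genes that did not pass the filter differed by -1.15 (Neurod2) to 1.12 (Neurod1).

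The titles number the arrays, and the amygdala arrays fall into 4 runs of numbers. These runs were set with earlier results of these data known, and the labels do not say what a run is. At 1 h, run 1 held 2 ethanol arrays and 1 water array, run 2 held 3 and 2, run 3 held 3 and 3, and run 4 held 3 ethanol arrays (numbers 26, 27 and 28) and 0 water arrays. With group means taken out, an ethanol and a water array of 1 run correlated at 0.21 on average over 17 pairs. Pairs from different runs correlated at -0.070 on average over 49 pairs. Each comparison was therefore also fitted with the run as a block, in which the 1 h ethanol arrays of run 4 are set against water arrays of that run only from other times.

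No probe set of the 18625 tested passed at an adjusted p under 0.05 (0% called), with or without the run block. The smallest adjusted p was 0.34 without the block and 0.11 with it (limma, Benjamini-Hochberg). At an unadjusted p under 0.05, 1012 probe sets were called (5.43%), 725 of them higher in ethanol rats (3.89%) and 287 lower (1.54%). With the run block there were 1416 (7.6%), 1019 higher (5.47%) and 397 lower (2.13%). The balance of higher and lower calls depended on the scaling of the arrays. When quantile normalization was repeated, 445 were higher and 644 lower, or 695 and 807 with the block. The median of all differences moved little, from 0.016 to -0.0086.

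**Figure D1:**
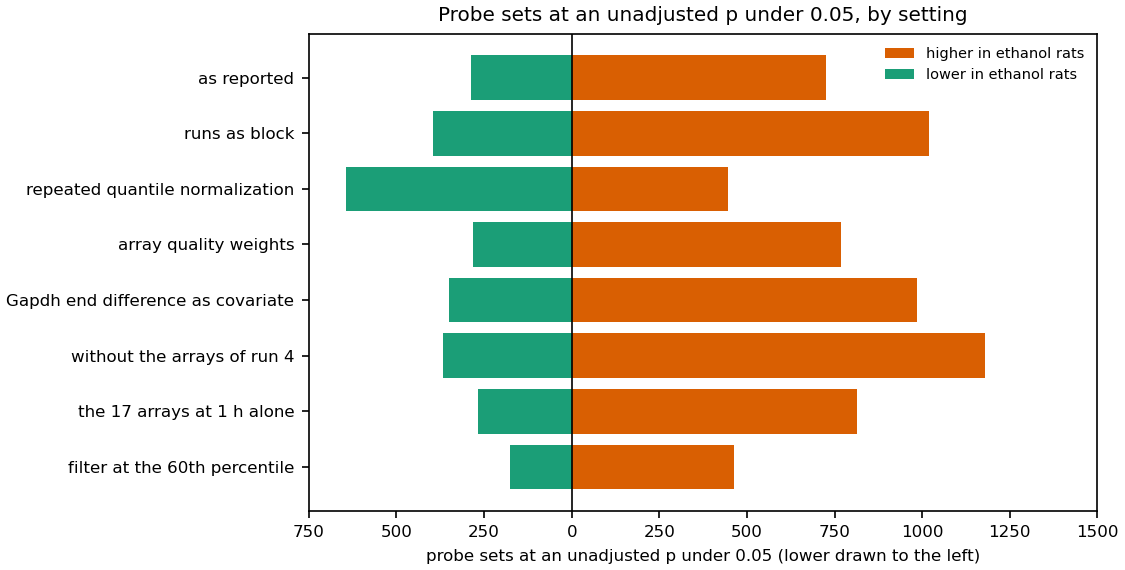
Number of probe sets at an unadjusted p under 0.05 in the central amygdala at 1 h, drawn to the right where higher and to the left where lower in ethanol rats, for 8 settings. Higher calls outnumber lower ones in every setting drawn except repeated quantile normalization, where 445 stand against 644.

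The genes at the head of the ranking are given next. None passed the adjusted test, and they are described by their values. The probe set 1381244_at, for which the annotation gave no gene, had the smallest p in both fits. It was between 7.69 and 8.80 in the ethanol arrays, with a median of 8.15, and between 7.13 and 7.65 in the water arrays, with a median of 7.57. Every ethanol array lay above every water array. The difference was 0.64 ± 0.14 (SE) with an adjusted p of 0.34, and 0.70 ± 0.14 with an adjusted p of 0.11 under the run block (limma). It passed under 3 other versions of the blocked fit and under array quality weights in both fits, as set out in the closing section.

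Groups without overlap were rare: 7 of 18625 probe sets (0.0376%), 4 higher in ethanol rats (0.0215%) and 3 lower (0.0161%). Ints10, a subunit of the Integrator complex that processes transcripts at RNA polymerase II, was one of them. Its values were 7.14 to 8.03 (median 7.39) in ethanol arrays and 6.90 to 7.10 (median 7.01) in water arrays, a difference of 0.49 ± 0.13. A brighter probe set of Ints10 differed by -0.041. Zbtb20, a zinc finger repressor, lay at 7.44 to 8.06 (median 7.64) against 6.97 to 7.40 (median 7.26), a difference of 0.41 ± 0.12. The fourth was Eef2k, the kinase that slows translation elongation. It measured 8.79 to 9.49 (median 9.04) against 8.65 to 8.78 (median 8.72), so that the lowest ethanol and the highest water array were nearly level. Its difference was 0.38 ± 0.11 (adjusted p of 0.89), and a further Eef2k probe set gave 0.35 ± 0.14. The 4 further probe sets of Zbtb20 lay between -0.10 and 0.37.

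Of the 3 lower probe sets without overlap, only Insrr has a gene name. It encodes the insulin receptor-related receptor and measured 7.15 to 7.36 (median 7.28) in ethanol arrays against 7.41 to 7.48 (median 7.45) in water arrays. The difference was small, -0.19 ± 0.061, with a narrow spread in the water group. The probe sets 1386460_x_at and 1385305_at differed by -0.26 ± 0.083 and -0.21 ± 0.073.

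**Figure D2:**
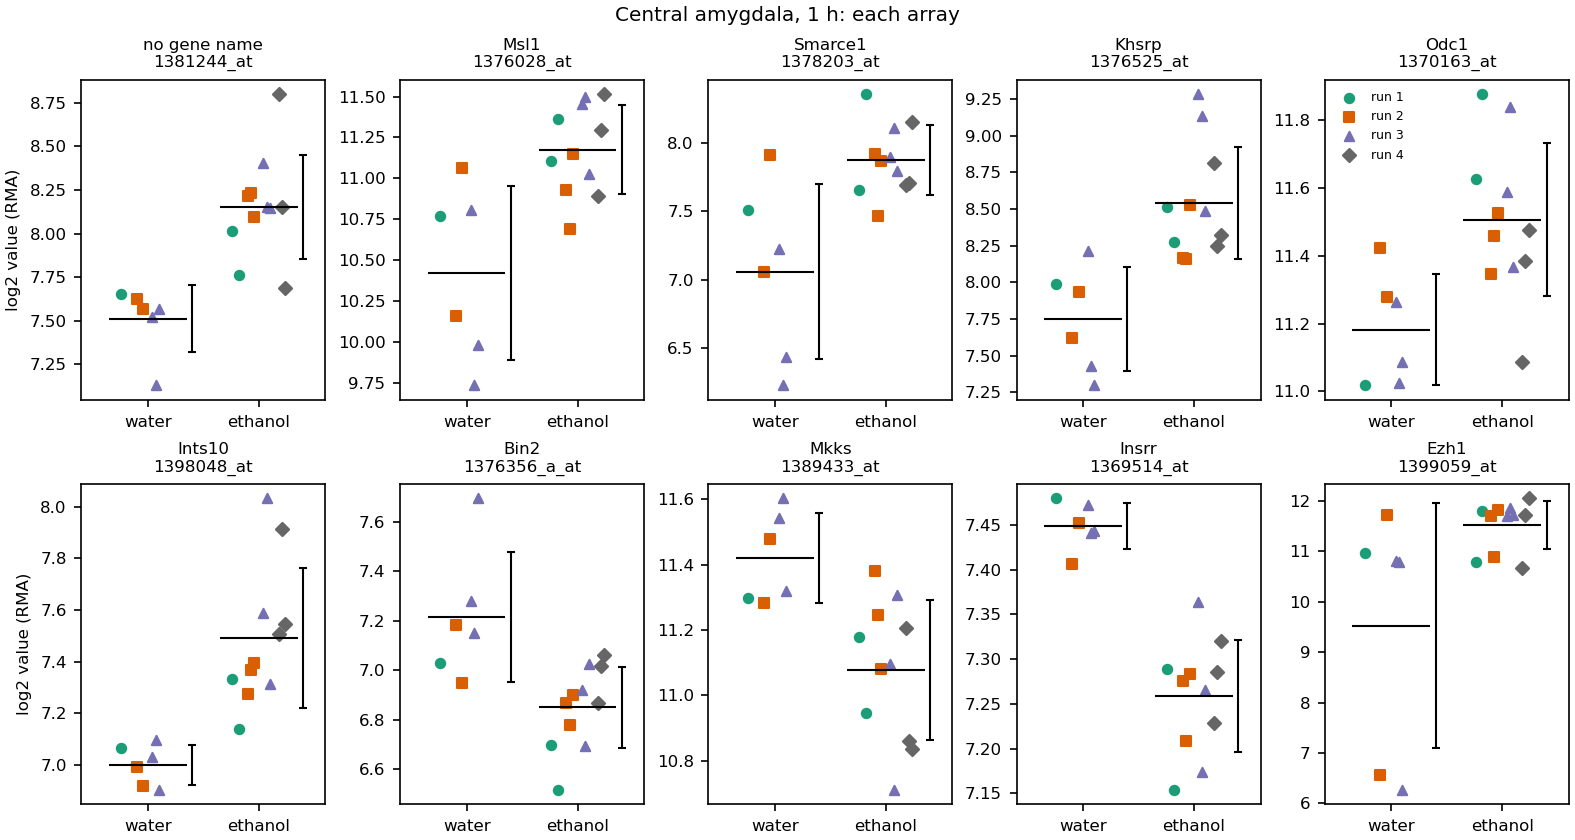
Log2 values of 10 probe sets in the 6 water and 11 ethanol arrays of the central amygdala at 1 h. Each point is an array, with colour and shape giving its run of title numbers, the line is the group mean and the bar beside it the SD. The groups do not overlap for 1381244_at, Ints10 and Insrr, and 2 water arrays of Ezh1 stand far below all the others.

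Msl1, Smarce1 and Khsrp had the smallest p among genes with a name. Msl1 is a scaffold of the MSL histone acetyltransferase complex, Smarce1 is a subunit of the BAF chromatin remodeller, and Khsrp binds AU-rich RNA in splicing and decay. Msl1 measured 10.69 to 11.51 (median 11.15) in ethanol arrays and 9.74 to 11.06 (median 10.47) in water arrays. Smarce1 measured 7.46 to 8.36 (median 7.87) against 6.23 to 7.91 (median 7.14). Khsrp measured 8.16 to 9.28 (median 8.49) against 7.30 to 8.21 (median 7.78). In all of them the groups overlapped, with 7, 4 and 9 of the 11 ethanol arrays above the highest water array.

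Their differences were 0.76 ± 0.17 for Msl1, 0.82 ± 0.18 for Smarce1 and 0.79 ± 0.19 for Khsrp, with adjusted p of 0.34, 0.34 and 0.47. With the run block these were 0.68, 0.79 and 0.84. Without water array 5, the highest of its group for Msl1 and Smarce1, these 2 passed in the unblocked fit (0.88 and 0.99, adjusted p of 0.048 and 0.043). The low water arrays were the same for these genes: numbers 11 and 12, both in run 3, were the lowest pair for each. Within run 3 the differences were 1.15, 1.31 and 1.32, and within runs 1 and 2 they lay between 0.27 and 0.51. Across the 17 arrays, once the group means were removed, Msl1 and Smarce1 correlated at 0.88 and Msl1 and Khsrp at 0.60. These are the residuals of arrays that share runs, and they are given as a description. Over all 45 pairs of the 10 higher genes, the median correlation was 0.31 and the range -0.23 to 0.88.

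Further probe sets of the same genes differed less. For Smarce1 they gave -0.00027 and 0.074, for Msl1 0.12 and 0.16, and for Khsrp 0.062. Over the 20 genes named without the block (10 in each direction), 14 had further tested probe sets, 17 in all. Of these 17, 12 had the sign of the named probe set and 0 reached an unadjusted p under 0.05. Their median in the named direction was 0.064, against 0.39 for the named probe sets. The named probe sets were chosen by their p in these arrays, so smaller differences in the others were likely in advance. For the 20 genes named with the run block, 18 of 22 further probe sets had the same sign. Of these 22, 3 reached an unadjusted p under 0.05 with the block (limma). Which probe set of a gene carries the transcript's level was not tested.

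**Figure D3:**
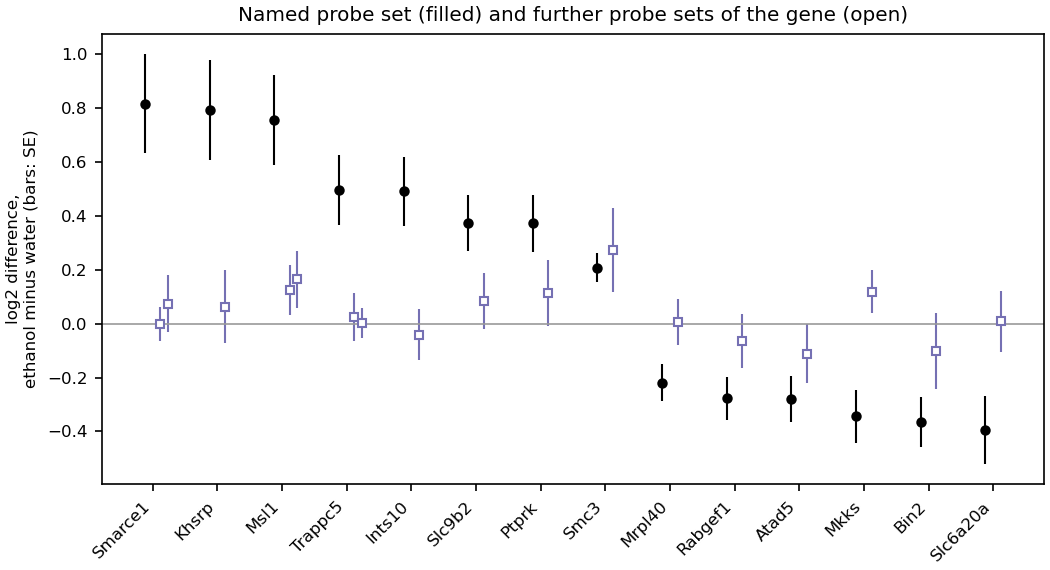
Log2 difference (ethanol minus water, central amygdala, 1 h, bars SE) of the named probe set (filled circle) and of the further tested probe sets (open squares) for the 14 named genes that have them. All 17 open squares lie nearer to 0 than their filled circle, apart from Smc3 at 0.27 against 0.21. The filled circles were chosen by their p in these arrays.

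Odc1, ornithine decarboxylase, makes putrescine and limits the rate of polyamine synthesis. It measured 11.09 to 11.87 (median 11.48) in ethanol arrays and 11.02 to 11.42 (median 11.17) in water arrays. The groups overlapped, with 7 of 11 ethanol arrays above the highest water array. The difference was 0.32 ± 0.082, with an adjusted p of 0.78, and 0.33 with the run block. It was 0.73 in run 1, 0.093 in run 2 and 0.47 in run 3. The other higher genes of the ranking were the cohesin subunit Smc3 (0.21), the vesicle tethering subunit Trappc5 (0.49), the mitochondrial iron-sulfur protein Glrx5 (0.48), the sodium exchanger Slc9b2 (0.37) and the receptor phosphatase Ptprk (0.37). All 10 were higher in ethanol rats in each of runs 1, 2 and 3, with medians of 0.43, 0.29 and 0.54. The runs entered the ranking, so this is a description of it.

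The 10 lower genes had smaller differences, from -0.19 for Insrr to -0.50 for Nenf, a secreted neurotrophic factor. Bin2, a membrane-bending protein known from blood cells and microglia, measured 6.52 to 7.06 (median 6.87) in ethanol arrays and 6.95 to 7.69 (median 7.17) in water arrays. Its difference was -0.36 ± 0.093 (adjusted p of 0.78), with 8 of 11 ethanol arrays below the lowest water array. This probe set passed the filter narrowly, with a mean of 6.963 over the amygdala arrays against a limit of 6.96. At 1 h the ethanol median lay below that limit and the water median above it, so its place in the ranking may rest on the water arrays. A further Bin2 probe set gave -0.10 ± 0.14. F2r, the thrombin receptor, measured 10.46 to 11.07 (median 10.79) against 10.86 to 11.62 (median 11.13). Its difference was -0.39 ± 0.11, and the groups overlapped.

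Mkks, a chaperonin-like protein of the primary cilium, differed by -0.34 and its further probe set by 0.12. Rabgef1, an exchange factor of early endosomes, differed by -0.28. The DNA clamp unloader Atad5 gave -0.28, the mitochondrial ribosomal protein Mrpl40 -0.22, the proline transporter Slc6a20a -0.39 and Sipa1l3, a Rap GTPase activator, -0.36. Within runs, 9, 9 and 10 of these 10 genes were lower in ethanol rats, Slc6a20a (0.10 in run 1) and Sipa1l3 (0.075 in run 2) being the exceptions.

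Ranking with the run block kept 5 of the 10 higher and 6 of the 10 lower genes. The newcomers among the higher genes included 2 receptor subunits. Gria3, an AMPA glutamate receptor subunit, measured 8.59 to 9.72 (median 9.20) in ethanol arrays and 8.22 to 8.79 (median 8.56) in water arrays. Its difference was 0.65 ± 0.22 without and 0.84 ± 0.19 with the block (adjusted p of 0.90 and 0.17), and 10 of 11 ethanol arrays lay above the highest water array. A brighter Gria3 probe set differed by -0.26 and -0.065 in these fits.

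Gabrg1, a GABA-A receptor subunit, measured 7.40 to 8.40 (median 8.07) against 7.40 to 7.95 (median 7.66). The groups began at the same level, and 7 of 11 ethanol arrays exceeded the highest water array. The difference was 0.33 ± 0.17 without and 0.52 ± 0.12 with the block (adjusted p of 0.90 and 0.21). The lowest ethanol values, 7.49, 7.57 and 7.40, were those of run 4, which has no water array at 1 h. In the other runs the ethanol values lay between 7.94 and 8.40. The blocked difference therefore leans on water arrays of run 4 from another time. Gabrg1 had no further tested probe set. Atrx, a chromatin remodeller of heterochromatin, differed by 0.48 ± 0.20 without the block and 0.58 ± 0.12 with it. Its further probe sets gave 0.64 and 0.25 with the block, both at an unadjusted p under 0.05. Thoc2 (mRNA export) and Bbs4 (ciliary transport) gave 0.58 and 0.49 with the block. The lower newcomers were Nsmce3, Lipe, Dhx36 and Bean1, between -0.21 and -0.33.

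The promoters of 3 of the 10 higher genes are printed as examples that hold TGACG, which had the largest count among the higher promoters. The promoter of Msl1, which was matched too, does not hold these letters. RefSeq (build GRCr8) gave a promoter for 10 of the 15 higher and 10 of the 14 lower genes named in either fit. In the 250 bases before the start, TGACG (either strand) was found in 5 of the 10 higher and 3 of the 10 lower promoters, and in 19% of all 27457 promoters. It forms part of the cAMP response element TGACGTCA, which 0 higher and 2 lower promoters held and 1.7% of all. The GC box GGGCGG was found in 4 and 4 (32.4% of all), TATAAA in 3 and 2 (13.1%), CCAAT in 4 and 4 (34.3%) and CACGTG in 0 and 1 (5.79%). The motif shown was picked after its count was seen. A match is a run of letters only. In the lines below, TGACG and its reverse complement CGTCA stand in capitals. The windows are chr6:46058415-46058664 (plus strand) for Odc1, chr9:1959401-1959650 (minus strand) for Khsrp and chr10:84676174-84676423 (minus strand) for Smarce1.
Odc1: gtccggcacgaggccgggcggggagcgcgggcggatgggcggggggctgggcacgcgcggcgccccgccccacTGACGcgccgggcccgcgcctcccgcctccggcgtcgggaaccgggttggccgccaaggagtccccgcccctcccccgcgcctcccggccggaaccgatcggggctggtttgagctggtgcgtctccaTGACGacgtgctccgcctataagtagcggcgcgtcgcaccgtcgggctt
Khsrp: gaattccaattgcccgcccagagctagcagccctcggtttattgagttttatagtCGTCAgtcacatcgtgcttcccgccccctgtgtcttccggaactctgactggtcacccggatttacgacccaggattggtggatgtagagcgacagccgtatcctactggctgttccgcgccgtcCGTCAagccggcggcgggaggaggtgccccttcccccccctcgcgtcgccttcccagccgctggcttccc
Smarce1: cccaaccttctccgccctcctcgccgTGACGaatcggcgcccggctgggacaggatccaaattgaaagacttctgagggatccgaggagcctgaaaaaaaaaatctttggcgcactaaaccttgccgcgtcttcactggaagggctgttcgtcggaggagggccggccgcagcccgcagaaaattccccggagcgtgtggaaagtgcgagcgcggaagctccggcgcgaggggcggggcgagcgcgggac
Odc1 and Khsrp each held 2 matches and Smarce1 held 1.

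The largest differences were found in genes outside that ranking, picked here after their values were seen. Ezh1, a histone H3 lysine methyltransferase, differed by 2.00 ± 0.58. Water arrays 4 and 12 measured 6.56 and 6.27, and all the other 15 arrays lay between 10.68 and 12.05. Cwc25, a splicing factor, differed by 1.06 ± 0.31, with water values from 5.79 to 7.83. Only 89 probe sets differed by more than 0.5 in either direction and 3 by more than 1.

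Gene lists were then read for the processes that the amygdala is known for. The lists were written with earlier results known, and no member of the 25 pathway lists (475 members in all, a gene in several lists counted in each) passed the adjusted test in either fit. Over all 10284 genes, 53% were higher, 2.99% were higher and 1.44% lower at an unadjusted p under 0.05, and the median difference was 0.0081. List medians lay between -0.10 and 0.098, and 9 of the 25 changed sign with the run block.

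**Figure D4:**
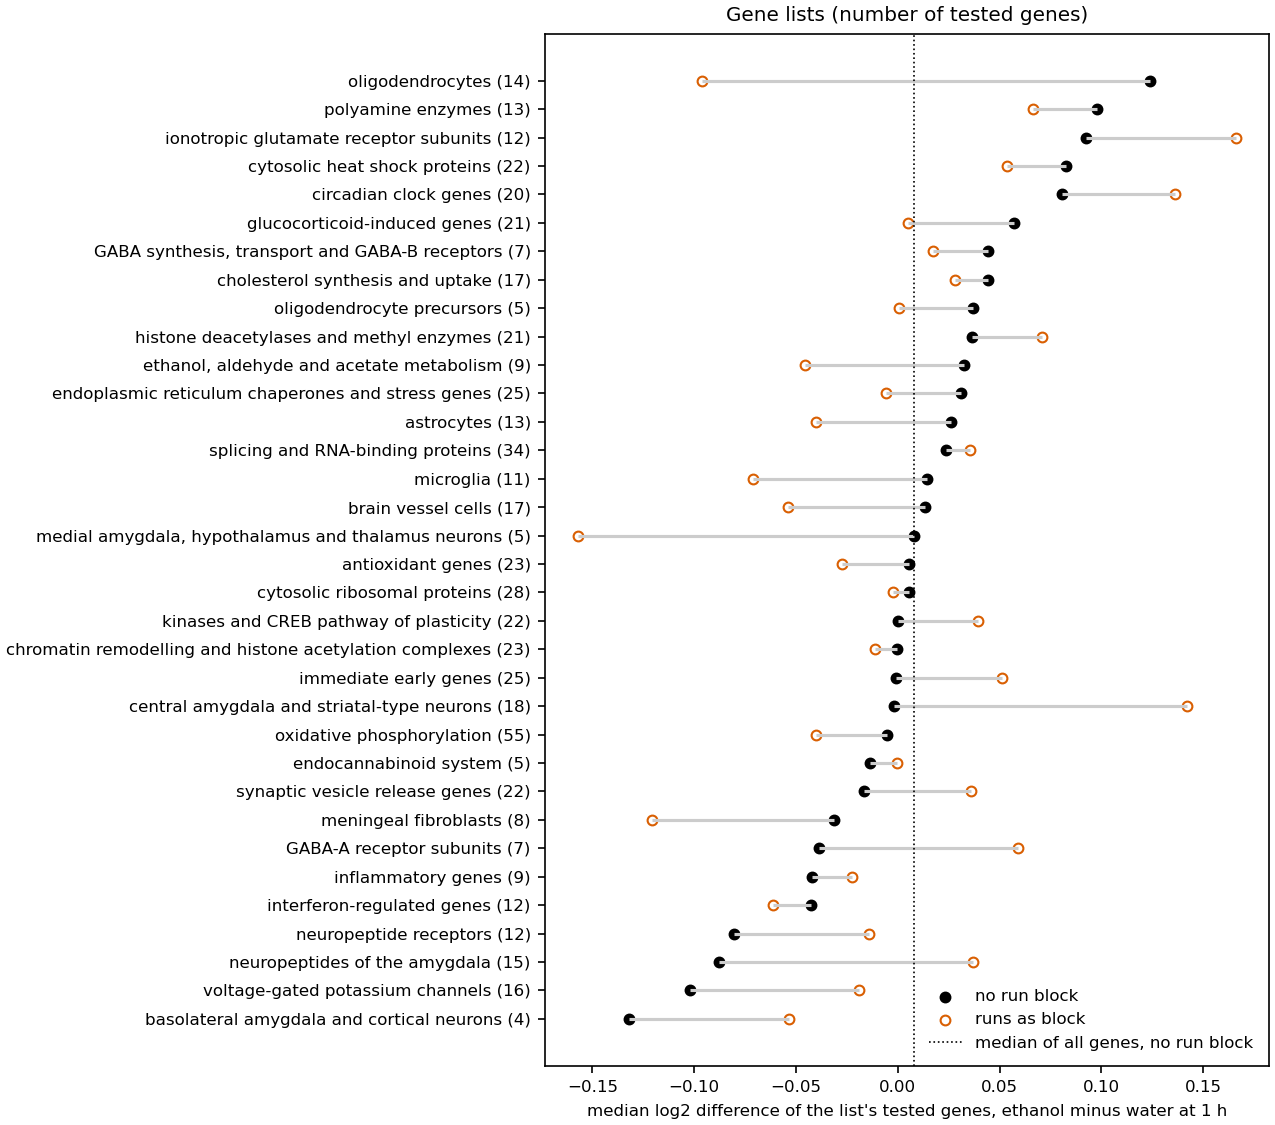
Median log2 difference (ethanol minus water, central amygdala, 1 h) of each gene list with at least 3 tested genes, without (filled) and with (open) the run block. The dotted line is the median of all genes. The longest connecting lines belong to oligodendrocytes (0.12 to -0.096), medial amygdala, hypothalamus and thalamus neurons (0.0077 to -0.16) and central amygdala and striatal-type neurons (-0.0020 to 0.14).

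Immediate early genes report recent neuronal firing. Of 25 measured, 12 were higher and 0 reached an unadjusted p under 0.05. Fos was between 10.56 and 12.32 (median 11.56) in ethanol arrays and between 10.83 and 12.21 (median 11.53) in water arrays. The groups overlapped almost wholly, with a difference of -0.18 and a 95% interval of -0.69 to 0.33. Egr1 gave 0.19 (-0.30 to 0.68) and Arc -0.13 (-0.76 to 0.50). With the run block 17 of 25 were higher, and Egr1 gave 0.42 at an unadjusted p of 0.046. At 6 h, without the run block, the ethanol differences of Fos and Egr1 were 0.59 and 0.56. Water arrays 16 and 17 at 6 h belong to run 4, and the part of the run in these 6 h differences was not tested.

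Of the glucocorticoid-induced genes, 15 of 21 were higher, 12 with the block. Cdkn1a, a cell cycle inhibitor, gave 0.53 ± 0.25, with 8.92 to 10.34 (median 9.39) in ethanol arrays and 8.61 to 9.24 (median 8.94) in water arrays. Its unadjusted p was 0.041 (limma), and 0.14 with the block. The highest Cdkn1a values, 9.68, 10.17 and 10.34, came from the ethanol arrays of run 4. In the ethanol arrays of the other runs the highest was 9.50. Fkbp5 (0.062, interval -0.25 to 0.37) and Sgk1 (-0.072, interval -0.50 to 0.36), the steroid targets most often followed, differed little. The clock gene Per1, which also responds to corticosterone, gave 0.23 (interval -0.012 to 0.48).

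Of 20 clock genes, 13 were higher, 15 with the block. The 4 clock genes at an unadjusted p under 0.05 were all higher. Bhlhe41, a repressor of the clock, measured 13.03 to 13.28 (median 13.22) against 12.89 to 13.19 (median 13.07), a difference of 0.14 ± 0.045. Csnk1d, a kinase of the PER proteins, gave 0.17 ± 0.060. The nuclear receptor Rora gave 0.36 ± 0.17. These 3 values stayed between 0.13 and 0.35 with the block.

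Of 13 polyamine enzymes, 10 were higher in both fits, 8 after repeated quantile normalization. The list holds Odc1, one of the 10 higher genes of the ranking. Amd1, which supplies the aminopropyl donor of spermidine, gave 0.16 ± 0.071. Oaz2, an antizyme that sends ornithine decarboxylase to the proteasome, gave 0.13 ± 0.061. All of these reached an unadjusted p under 0.05 without the block (Amd1 0.058 with it), as 2.99% of all genes did on the higher side.

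GABA genes showed no common direction. Gad1, which makes most GABA, was between 14.25 and 14.45 in ethanol arrays and between 14.22 and 14.49 in water arrays. Its difference was -0.0053 with an interval of -0.076 to 0.065. Gad2, the synaptic isoform, measured 8.69 to 9.86 (median 9.47) against 8.70 to 9.34 (median 8.97), a difference of 0.34 (interval -0.029 to 0.71), or 0.45 ± 0.16 with the block. Gabbr2, a GABA-B receptor subunit, gave -0.27 ± 0.12, and -0.17 ± 0.097 with the block (unadjusted p of 0.026 and 0.084). Its lowest 2 values, 11.21 and 11.25, came from ethanol arrays of run 4, and within run 1 the difference was 0.15. Of 7 GABA-A subunits, 3 were higher without and 5 with the block.

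Of 12 glutamate receptor subunits, 10 were higher in both fits, with medians of 0.093 and 0.17. None reached an unadjusted p under 0.05 without the block, and Gria1, another AMPA receptor subunit, did with it (0.41). In this list Gria3 stands for its brighter probe set, which was lower. Of 16 voltage-gated potassium channel genes, 13 were lower without the block and 9 with it. Kcnip4, which modulates A-type channels, gave -0.25 ± 0.10, and -0.30 with the block.

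Neuropeptide genes were mostly lower without the block (12 of 15) and divided with it (8 of 15 higher). Crh was between 6.76 and 10.99 (median 8.95) in ethanol arrays and between 8.21 and 9.76 (median 9.57) in water arrays. Its 2 lowest ethanol arrays, at 6.76 and 7.24, both came from run 4. The difference was -0.021 (interval -1.17 to 1.12), and 0.38 with the block. Npy gave -0.11 (interval -0.57 to 0.34), Cck -0.33 and Nts -0.22. The kappa opioid receptor Oprk1 gave -0.45 ± 0.27, the lowest of the 12 peptide receptors, and -0.16 with the block.

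Mgll, the lipase that breaks down the endocannabinoid 2-arachidonoylglycerol, measured 11.28 to 11.75 (median 11.40) in ethanol arrays and 10.74 to 11.32 (median 11.13) in water arrays, and 9 of 11 ethanol arrays lay above the highest water array. The difference was 0.36 ± 0.11 in both fits, with adjusted p of 0.89 and 0.37. Its list of 5 genes had 2 higher members.

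Among stress and housekeeping lists, 18 of 22 heat shock proteins were higher without the block and 15 with it, with medians of 0.083 and 0.053. The mitochondrial chaperone Hspd1 gave 0.091 ± 0.047. Of 25 endoplasmic reticulum genes, 18 were higher without and 11 with the block. Hsp90b1, a chaperone of that compartment, gave 0.28 ± 0.13. Of 55 oxidative phosphorylation genes, 26 and 17 were higher. In the list of ethanol and aldehyde metabolism, 5 of 9 were higher, and catalase (Cat), which oxidises ethanol in the brain, gave -0.20 ± 0.15. Mvd, an enzyme of cholesterol synthesis, gave 0.27 ± 0.098.

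Cell-type markers moved with the runs. All 14 tested oligodendrocyte genes were higher in ethanol rats without the block (median 0.12), 12 after repeated quantile normalization, 5 without run 4 and 3 with the block. None reached an unadjusted p under 0.05 in the unblocked fit, and the mean level over the 14 ranged from 11.12 to 12.41 in ethanol and from 11.17 to 12.18 in water arrays. Of the 18 genes of central amygdala and striatal-type neurons, 9 were higher without the block, 15 with it and 15 without run 4. Their mean level ranged from 10.25 to 11.37 in ethanol and from 10.46 to 11.13 in water arrays. In tissue pieces, fewer cells of a type and less RNA per cell cannot be told apart.

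The 3 ethanol arrays of run 4 stood out in these lists. Their mean oligodendrocyte level was 12.21, against 11.24 to 11.84 in the ethanol arrays of the other runs. Their mean level of central amygdala and striatal-type neuron genes was 10.40 against 10.96 to 11.21, their neuropeptide level 8.91 against 9.43 to 9.64, and their immediate early gene level 9.13 against 9.47 to 9.70. Run 4 has no water array at 1 h, so run and treatment cannot be told apart in it. The part of dissection or cell makeup in the gene differences above was not tested.

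RNA integrity was read from the control probe sets at both ends of the Gapdh transcript, where a larger 3' minus 5' difference goes with more degraded RNA. It was 2.96 ± 0.57 (SD) in the 11 ethanol and 2.85 ± 0.53 in the 6 water arrays, a difference of 0.10 (two-sided exact permutation test, p = 0.709, and 0.709 adjusted over both transcripts). For beta-actin the difference was 0.22 (exact p = 0.167, adjusted 0.334). Both tests exchanged labels over all 17 arrays without regard to runs, so differences between runs are not taken out. Ethanol array 27, of run 4, had the highest value of the amygdala arrays at 1 h for both transcripts (Gapdh 3.748, beta-actin 4.945). The next highest beta-actin value was 4.414. Array 27 also had the lowest median correlation with the other amygdala arrays (0.9822) among those at 1 h. Run means of the Gapdh measure at 1 h were 2.31, 2.55, 3.39 and 3.22 in runs 1 to 4. Beta-actin did not repeat this order: its values at 1 h were 3.785 to 4.239 in run 3 and 3.933 to 4.414 in run 2. Whether RNA integrity differed between the runs was not tested.

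The ethanol difference at 1 h was then set against those at other times and in the accumbens shell. No probe set passed an adjusted p under 0.05 for any difference of effects (0% called). At an unadjusted p under 0.05, 586 differed between 1 h and 6 h (3.15%), 351 between 1 h and 24 h (1.88%) and 436 between the regions (2.34%). With the run block these were 288 (1.55%), 789 (4.24%) and 577 (3.1%). In the regional fit the runs divided the amygdala arrays only, so the accumbens arrays had no run adjustment. For the ethanol effect itself, without the block, the shares called were 8.22% at 6 h, 0.655% at 24 h and 1.3% in the accumbens shell. The share in the amygdala at 1 h was 5.43%.

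Sipa1l3 was among the 3 genes with the smallest p in all of these differences. It gave -0.36 at 1 h, 0.21 at 6 h, 0.13 at 24 h and 0.11 in the accumbens shell. The differences were -0.57 ± 0.16 from 6 h, -0.49 ± 0.16 from 24 h and -0.47 ± 0.13 from the accumbens, with adjusted p of 0.85, 1 and 1. All of these share the 1 h amygdala arrays and are from the fits without the run block. The Sipa1l3 values of the run 4 ethanol arrays at 1 h were 8.27, 8.12 and 8.30, against 8.18 to 8.73 in the ethanol arrays of the other runs. Run 4 has no water array at 1 h but holds water arrays 16 and 17 at 6 h. The part of the run in these differences was not tested. Khsrp gave 0.79 at 1 h, 0.74 at 6 h, 0.14 at 24 h and -0.014 in the accumbens shell. Its regional difference was 0.81 ± 0.23, and that from 6 h 0.054 ± 0.27.

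Trappc5 gave 0.49 at 1 h, -0.016 at 6 h and -0.020 in the accumbens shell, with a regional difference of 0.52 ± 0.15. Msl1 gave 0.76 at 1 h, 0.47 at 6 h and -0.0026 at 24 h. The remaining genes with the smallest p were the ubiquitin ligase Rnf144a between 1 h and 24 h (0.54 ± 0.17), and between 1 h and 6 h Klhl36 (0.42 ± 0.11) and Dlst, a subunit of the 2-oxoglutarate dehydrogenase complex (0.47 ± 0.13).

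Of the 20 genes named at 1 h without the block, 14 had the same sign at 6 h, 15 at 24 h and 13 in the accumbens shell. Their median in the 1 h direction was 0.048, 0.050 and 0.040 there, against 0.37 at 1 h. At an unadjusted p under 0.05, 4 of the 20 were called at 6 h, 1 at 24 h and 1 in the accumbens. These sets share no array, but the labels do not say whether both regions came from the same rats. Runs also span the times, and the 1 h values are the ones that chose the genes.

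**Figure D5:**
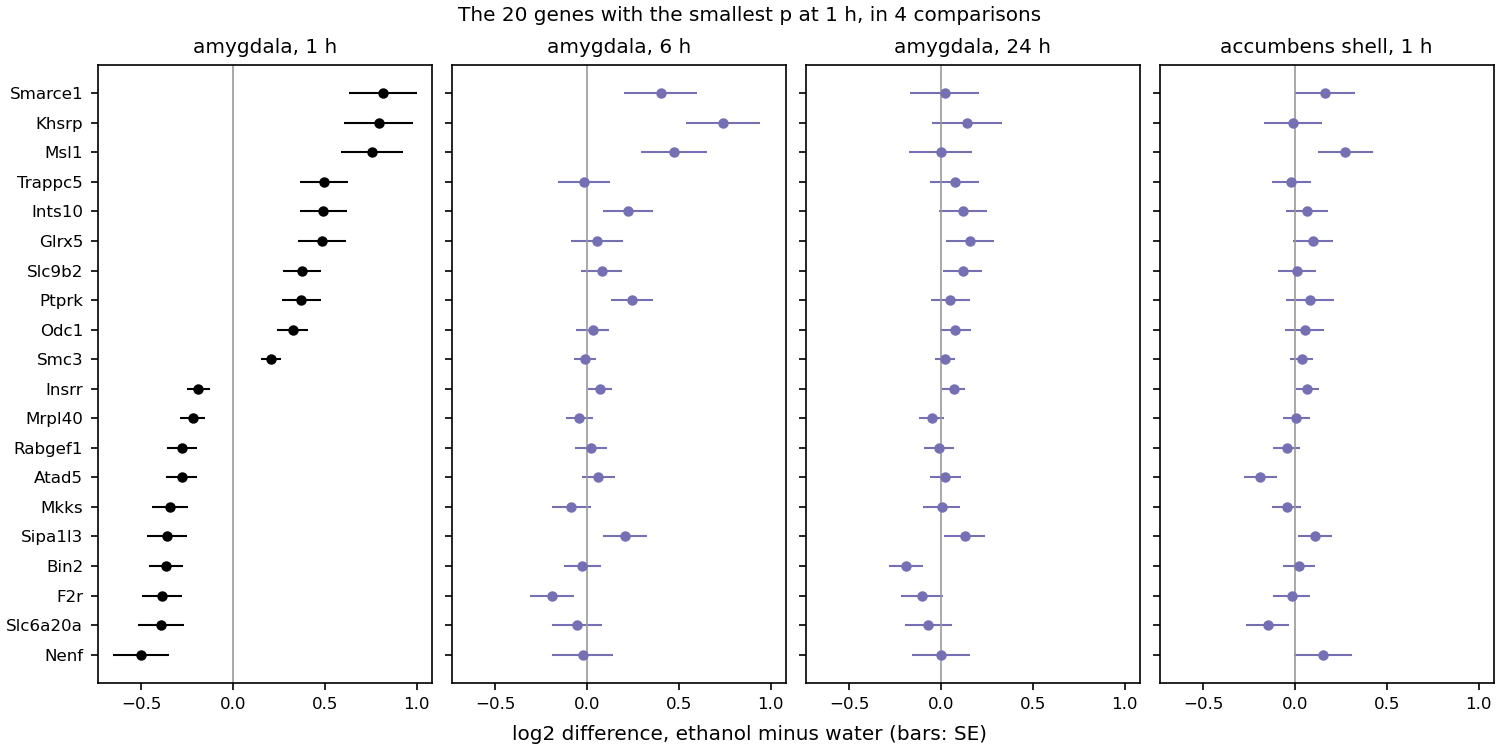
Log2 difference (ethanol minus water, bars SE) of the 20 genes with the smallest p at 1 h, in the central amygdala at 1, 6 and 24 h and in the accumbens shell at 1 h. The genes were chosen on the first panel. At 6 h Khsrp (0.74), Msl1 (0.47) and Smarce1 (0.40) remain to the right of 0. All panels are without the run block, and water arrays 16 and 17 at 6 h belong to run 4.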

How the data were processed

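Biotinylated RNA, amplified in 2 cycles from 25 ng of total RNA, was measured on Affymetrix rat arrays. The deposited table holds log2 values that the authors made by RMA, per the submitters' processing notes. RMA subtracts background, quantile-normalizes the arrays and takes 1 value per probe set; its version and the scan dates are not given in the sources used here. Of 31099 probe sets, 57 controls were left out, and a probe set was tested where its mean over the 48 amygdala arrays passed the 40th percentile (6.96), which held for 18625. Of these, 13329 carried 1 gene symbol.

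limma 3.58.1 (R 4.3.3) fitted a mean for each of 6 groups of treatment and time, with trended moderated variances and Benjamini-Hochberg adjustment, and again with the 4 runs as a block. Both regions were fitted together (12 groups) for the regional difference. Named genes were the 10 with the smallest p in each direction in each fit, 3 per difference, and up to 3 per list with 10 fixed genes, of which those described are printed. A listed gene stands for its brightest probe set. Members and lists were chosen with earlier results of these data known. The number of arrays limits the precision. Alternatives were filters, repeated quantile normalization, array weights, a Gapdh covariate, other blocks and left-out arrays.

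Title numbers were also checked as pairs. Of 17 pairs of same-numbered arrays, 8 correlated above 0.1 after group means were removed and 0 correlated best with its own number, so the numbers were not used as pairs.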

Additional observations from a re-analysis of the deposited data

Results flagged for a closer look

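In the water group of 6, the gap between 1 array and the nearest of the others took most of the group's range for 8 of 109 measures tested, where chance gives about 1 in 20. Water array 11 was the lowest for 1381244_at (7.13, next 7.52) and Zbtb20 (6.97, next 7.24), and the highest for Ier5 (9.54, next 8.72), Rps29 (14, next 13.81) and Tshz1 (11.61, next 10.98). Water array 12 was the lowest for Rps23 (14.45, next 14.60). Water array 1 was the highest for Csrnp1 (7.46, next 7.01), and water array 4 for Rora (8.10, next 7.66). Zbtb20 and 1381244_at are among the probe sets whose groups do not overlap.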

How the results depend on the processing

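The number of probe sets passing an adjusted p under 0.05 was 0 in the reported fits and remained 0 for the differences from 6 h and from 24 h under all alternatives run. Array quality weights gave 1 (1381244_at, adjusted p of 0.031) without the run block, 2 with it (1381244_at and Gabrg1, 0.0084 and 0.031) and 1 for the regional difference (1381244_at, 0.018). The blocked fit gave 1 without the arrays of run 4 (1381244_at, 0.014). It also gave 1 without a filter: Scaper, a regulator of the cell cycle with a mean of 6.36, below the limit, at 0.79 ± 0.13 (adjusted p of 0.0056) and 6.46 to 7.42 in ethanol against 5.71 to 6.26 in water arrays. Leaving out 1 array gave 0 to 2 without the block (Msl1 and Smarce1 without water array 5) and 0 to 1 with it (1381244_at without ethanol array 28 or water array 1). The cause was not tested. A block for the replicate number in the titles gave 0 passing and 2203 at an unadjusted p under 0.05, against 1012. Without a filter there were 2000 at an unadjusted p under 0.05 (1042 higher, 958 lower), without run 4 there were 1545, and leaving out 1 array gave 646 to 1252. With the run block these were 2573, 2409 and 808 to 1891, and 2372 with the Gapdh measure as covariate. For the difference between 1 h and 6 h, 586 were called at an unadjusted p under 0.05, against 288 with the run block, 207 without run 4, 359 at the 60th percentile, 1304 without a filter, 1761 with array quality weights and 359 to 888 with 1 array left out. For that between 1 h and 24 h, 351 were called, against 188 at the 60th percentile, 653 without run 4, 789 with the run block, 1210 without a filter and 1473 with the title-number block. Filters change the number of probe sets tested: 18625 in the reported fits, 31042 without a filter and fewer at the 60th percentile. Counts under different filters are therefore not shares of the same total, and a higher or lower count there is not a change in share.

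Most of the named measures were chosen by their values in these arrays, so a kept sign was likely for them in advance. Of the 107 named measures, 4 changed sign with the run block: Gad1 (0.017), Fos (0.030), Crh (0.38) and Arc (0.13). The same 4 did so without run 4, at 0.028, 0.10, 0.55 and 0.15. The Gapdh covariate, added after the data were seen, turned Crh to 0.011. With 1 array left out, the ranges that crossed 0 were those of Gad1 (-0.035 to 0.019), Sgk1 (-0.21 to 0.018), Fkbp5 (-0.031 to 0.14), Crh (-0.21 to 0.22), Arc (-0.29 to 0.030) and the Gapdh end difference (-0.031 to 0.27). Repeated quantile normalization and the fit of the 17 arrays alone changed no sign. The table holds no detection calls, so low probe sets were set apart from background by their level alone.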

Other observations

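Lists not described in the report held no member past the adjusted test either, and their counts are given as values. Of 21 histone deacetylases and methyl enzymes, 16 were higher in ethanol rats (14 with the run block, 12 after repeated quantile normalization), with Tet3, which oxidises methylated DNA, at 0.21 ± 0.098. Of 34 splicing and RNA-binding proteins, 24 were higher (23 and 17), with Hnrnph1 at 0.13 ± 0.050. Of 23 chromatin remodelling genes, Msl1 included, 10 were higher in both fits. Synaptic vesicle genes had 8 of 22 higher and 12 with the block, and the vesicle fusion protein Vamp2 gave 0.21 ± 0.096. Among plasticity kinases 11 of 22 were higher (16 with the block), while Camk2g, a calcium-calmodulin kinase, gave -0.22 ± 0.092 and -0.22 with the block. Ribosomal protein genes divided 15 to 13, with Rps23 at 0.077 ± 0.027 and Rps29 at -0.14 ± 0.067. Antioxidant genes had 13 of 23 higher and 7 with the block, and Srxn1, which repairs peroxiredoxins, gave 0.19 ± 0.095.

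In the immune lists, 5 of 12 interferon-regulated and 4 of 9 inflammatory genes were higher, and Usp18, an interferon-induced protease, gave -0.26 ± 0.16 (-0.37 with the block). Glial and vessel markers changed their balance with the block, from 9 to 6 of 13 astrocyte, 7 to 2 of 11 microglia and 9 to 7 of 17 vessel genes higher. The microglial receptor P2ry12 gave -0.23 ± 0.15 and -0.26 with the block.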
